A study of Mus musculus with 8 samples.

Results

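The potassium channel genes of the mouse kidney were described here as every gene whose symbol consists of Kcn, a subfamily letter code and a number, which covers pore-forming subunits, accessory subunits and channel-interacting proteins. 93 genes in 20 subfamilies met this rule among 77981 genes in the deposited table. Of these, 34 genes in 16 subfamilies reached a mean of 1 TPM over the 8 libraries and were tested, and 59 did not. TPM is transcript abundance corrected for transcript length and scaled to an equal total for each library, so levels of different genes can be compared.

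The libraries came from kidney RNA of mice, with the cell type given as IMCD, the inner medullary collecting duct, and the series is titled as an inducible Avp knockout line. 4 libraries had the genotype AVP-flox and 4 the genotype AVP-flox;Cre, and all 8 carried the label tamoxifen. In both groups the vasopressin gene Avp is flanked by loxP sites, 1 in its first intron and 1 downstream of its 3′ end, so the controls carry the floxed allele and the drug treatment too. The AVP-flox;Cre group adds the recombinase, and its libraries are also called Cre-carrying below. The sources used here give neither the promoter that drives the recombinase nor the age of the mice. Nothing in the labels says that every replicate came from a different animal. Libraries with the male and with the female pattern of Xist occurred in each group, so neither group came from a single animal. If some libraries of a group shared an animal, p-values reflect spread among these samples alone, which may be technical in part.

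Potassium channels let potassium ions cross a membrane down their electrochemical gradient. In kidney epithelia they set the membrane voltage that drives other transport, return potassium that the sodium pump has brought in across the basolateral membrane, and secrete potassium into the urine. Inward rectifiers (Kcnj) and tandem-pore channels (Kcnk) conduct at rest, voltage-gated channels (such as Kcna, Kcnc, Kcnd, Kcnh and Kcnq) open on depolarization, and calcium-activated channels (Kcnm, Kcnn) respond to intracellular calcium, while Kcne, Kcnip, Kcnab and Kcns products modify pore-forming partners.

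RefSeq promoters of build GRCm38.p6 were looked up for the 4 members with the smallest adjusted p-values, because their levels separated the groups most clearly. Of these, Kcnj16, Kcnj13 and Kcne4 were in the table and Kcnq1 was not matched. Each stretch runs from 250 bases before to 50 bases after a transcription start, 5′ to 3′ on the strand of the gene. Capitals mark TGACG, the core of the cyclic AMP response element, or AGGTCA, a nuclear receptor half-site, on either strand. Kcnj16 lies at chr11:110967783-110968082 on the plus strand (the first of its 4 starts), Kcnj13 at chr1:87394680-87394979 on the minus strand, and Kcne4 at chr1:78816661-78816960 on the plus strand.
Kcnj16: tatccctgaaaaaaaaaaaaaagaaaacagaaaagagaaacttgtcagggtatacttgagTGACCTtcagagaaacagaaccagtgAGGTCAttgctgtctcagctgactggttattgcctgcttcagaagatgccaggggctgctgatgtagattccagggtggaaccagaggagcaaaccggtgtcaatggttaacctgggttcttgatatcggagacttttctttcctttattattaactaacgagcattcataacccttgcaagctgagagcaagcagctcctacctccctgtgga
Kcnj13: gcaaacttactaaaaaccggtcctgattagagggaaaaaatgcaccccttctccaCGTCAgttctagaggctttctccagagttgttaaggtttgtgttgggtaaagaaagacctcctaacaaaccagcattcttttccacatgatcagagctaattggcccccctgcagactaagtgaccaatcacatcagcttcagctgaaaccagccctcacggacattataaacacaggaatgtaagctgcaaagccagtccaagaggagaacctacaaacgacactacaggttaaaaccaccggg
Kcne4: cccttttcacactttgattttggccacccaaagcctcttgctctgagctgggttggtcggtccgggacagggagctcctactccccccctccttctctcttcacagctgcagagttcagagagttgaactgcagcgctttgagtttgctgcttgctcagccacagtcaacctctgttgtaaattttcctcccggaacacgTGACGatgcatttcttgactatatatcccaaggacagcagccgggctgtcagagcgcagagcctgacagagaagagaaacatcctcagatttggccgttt
The Kcnj13 and Kcne4 stretches each hold 1 TGACG match, although Kcnj13 was higher and Kcne4 lower in AVP-flox;Cre, and this Kcnj16 stretch holds 2 AGGTCA matches. 27 of the 34 tested members matched the promoter table, with 44 starts. TGACG was found at 18.2% of these starts and at 20.8% of all 32851 promoters of the same length. AGGTCA was found at 2.27% and 16.3%, and the full response element TGACGTCA at 0 of 44 and 1.79%. 10 motifs were searched, and the ones marked were chosen after their matches had been seen. For the others, the share of member starts and of all promoters was 20.5% and 21.4% for TGGAAA, the core of the tonicity element, 6.82% and 13.6% for TATAAA, 38.6% and 37.4% for CCAAT, and 43.2% and 35.7% for GGGCGG. The palindromic oestrogen and glucocorticoid response elements and the HNF1 site were found at 0 of 44 starts. Their shares of all promoters were 0.07%, 0.009% and 0.009%, so 0 of 44 carries almost no information about the members. TGACG lies within TGACGTCA, so those matches overlap. Gene-level TPM does not show which start was used.

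Between groups, 5 of the 34 tested members were higher and 6 lower in AVP-flox;Cre (limma on log2(TPM + 1), Benjamini-Hochberg adjusted p below 0.05 over all 19043 tested genes). The members that passed in either direction made up 32.4% of those tested, beside 27.3% of all tested genes, so their share was near the background. In the background 13.1% of genes were higher and 14.2% lower, against 14.7% and 17.6% of members. The groups did not overlap in 13 members, 6 of them higher and 7 lower, beside 29.5% of all tested genes, with 14.7% higher and 14.9% lower. The median log2 fold change, AVP-flox;Cre minus AVP-flox throughout, was 0.01 over the members and -0.01 over all tested genes. Genes higher in AVP-flox;Cre were Kcnq1, Kcnj13, Kcnmb1, Kcnk3 and Kcnc2, and genes lower were Kcnj16, Kcne4, Kcns3, Kcnip2, Kcne2 and Kcnip3. Of these, Kcnmb1, Kcnc2 and Kcne2 reached a mean of 1 TPM only through the group in which they were high. With AVP-flox 2 and Cre-carrying replicates 2 and 4, which stood apart in earlier results, left out, 4 were higher and 5 lower. In that comparison Kcnc2, Kcnip2 and Kcnip3 lost the call and Kcnj1 gained it among the lower genes (log2 fold change -2.38, limma adjusted p = 0.00117). AVP-flox 2 held the lowest Kcnj1 value of all libraries, so leaving it out was bound to widen the Kcnj1 difference. In bulk RNA, fewer cells of a type and less RNA per cell cannot be told apart.

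**Figure D1:**
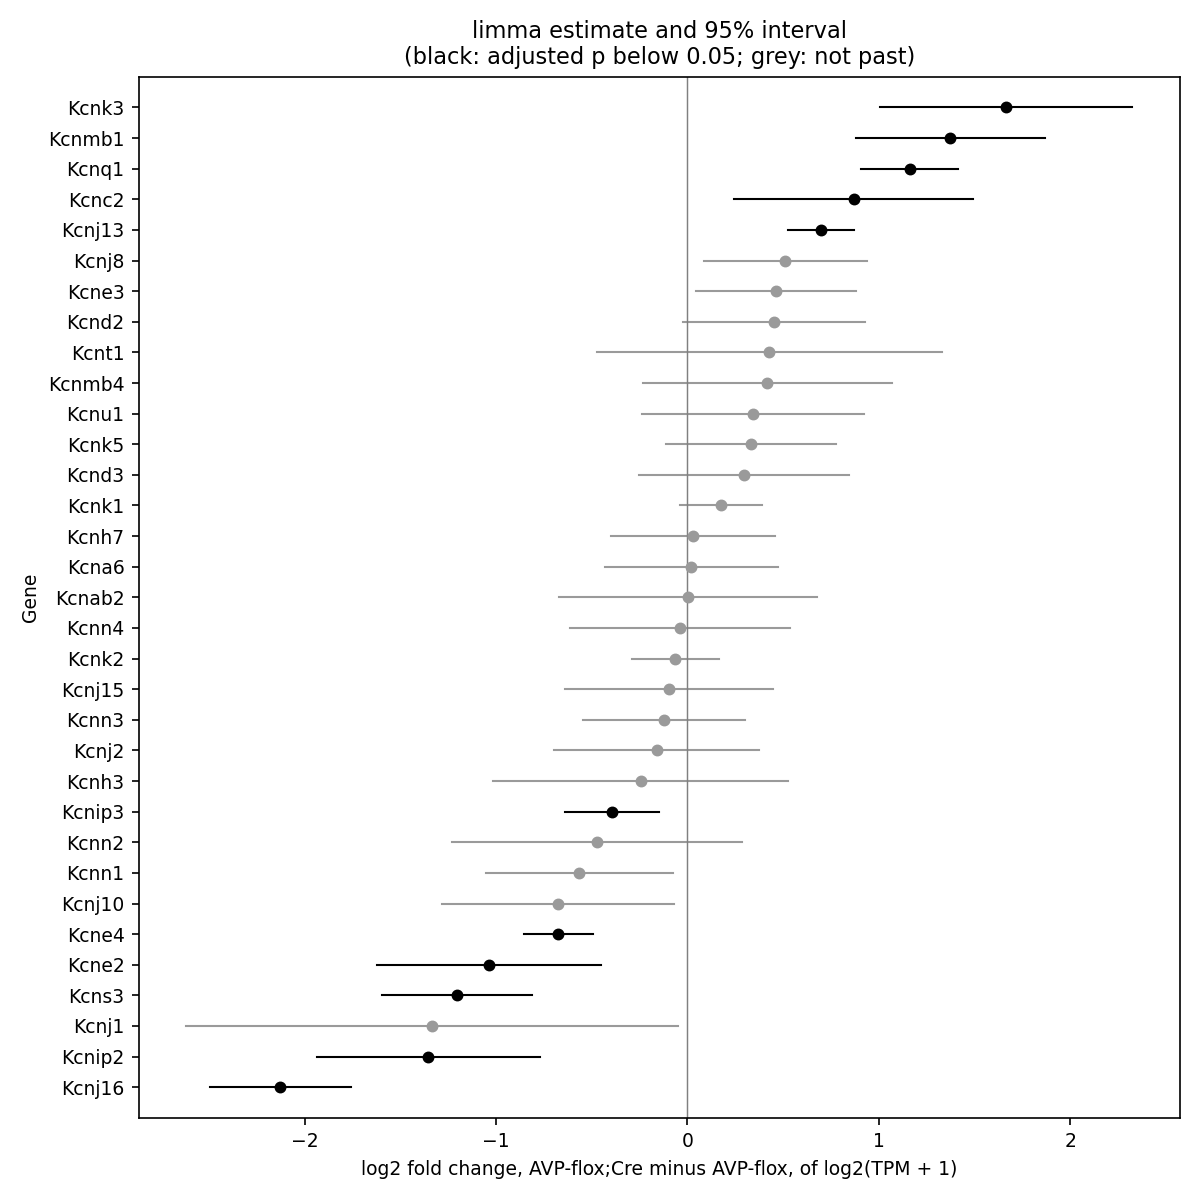
Log2 fold change (AVP-flox;Cre minus AVP-flox, on log2(TPM + 1)) with its 95% interval for the tested potassium channel genes, 1 of which is not shown. Kcnj16 lies furthest to the left at -2.13 and Kcnk3 furthest to the right at 1.67.

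9 members had a mean of at least 10 TPM and together held 82.2% to 89.3% of the summed TPM of all 93 members in each library. Pooled over both groups, the means of the 8 libraries were 118 TPM for Kcnk5, 103 for Kcnk1, 95.2 for Kcnj13, 72.0 for Kcnj1, 53.1 for Kcnq1, 51.8 for Kcnj16, 41.4 for Kcne4, 25.9 for Kcnk2 and 23.6 for Kcnip3. The order differed between groups. In AVP-flox the highest means were Kcnj1 at 109.6, Kcnk5 at 105.3, Kcnk1 at 97.0, Kcnj16 at 84.8 and Kcnj13 at 72.4 TPM, and Kcnj1 ranged so widely that it overlapped all of them. In AVP-flox;Cre they were Kcnk5 at 131, Kcnj13 at 118, Kcnk1 at 109.6 and Kcnq1 at 73.6 TPM. There the first 3 overlapped and all lay above Kcnq1. Kcnk2 and Kcnip3 overlapped in AVP-flox and were separate in AVP-flox;Cre. The sum over all members was 697 ± 94 TPM (SD, n = 4) in AVP-flox and 661 ± 24 TPM (SD, n = 4) in AVP-flox;Cre. The lowest sum, 574 TPM, was in AVP-flox 2 and the highest, 802 TPM, in AVP-flox 1, so the AVP-flox libraries enclosed all AVP-flox;Cre libraries. The total thus overlapped between groups while its makeup differed.

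**Figure D2:**
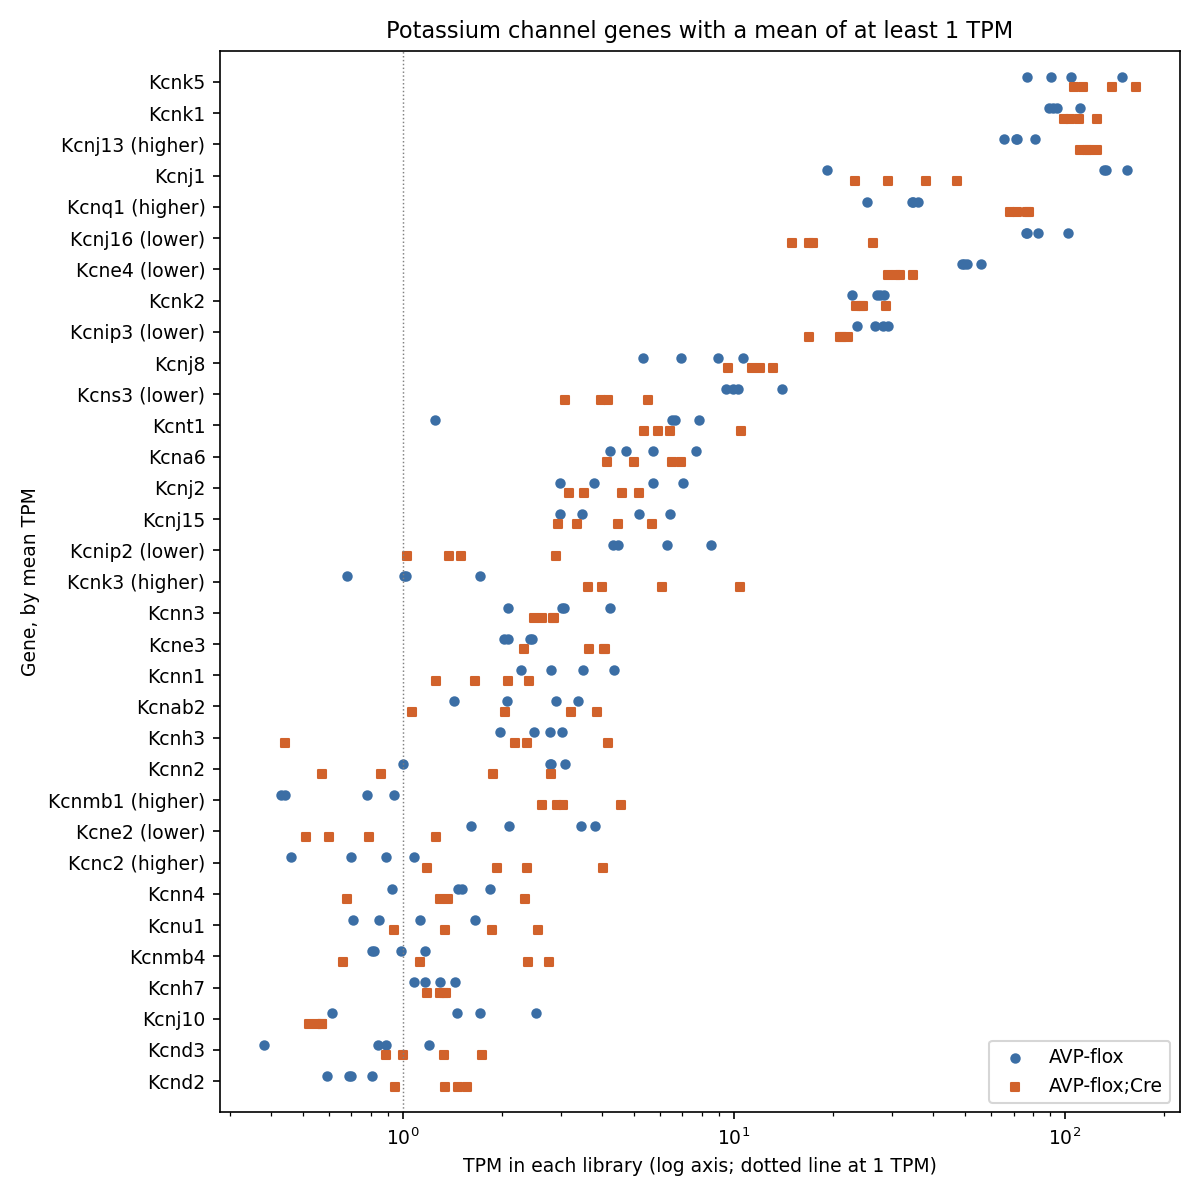
TPM of the tested members, 1 of which is not shown, in each library, on a log axis, with circles for AVP-flox, squares for AVP-flox;Cre and a dotted line at 1 TPM. The circles and squares of Kcnj13, Kcnq1, Kcnj16 and Kcne4 are separate, and the AVP-flox 2 circle of Kcnj1 lies at 19.2 TPM, below the squares.

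**Figure D3:**
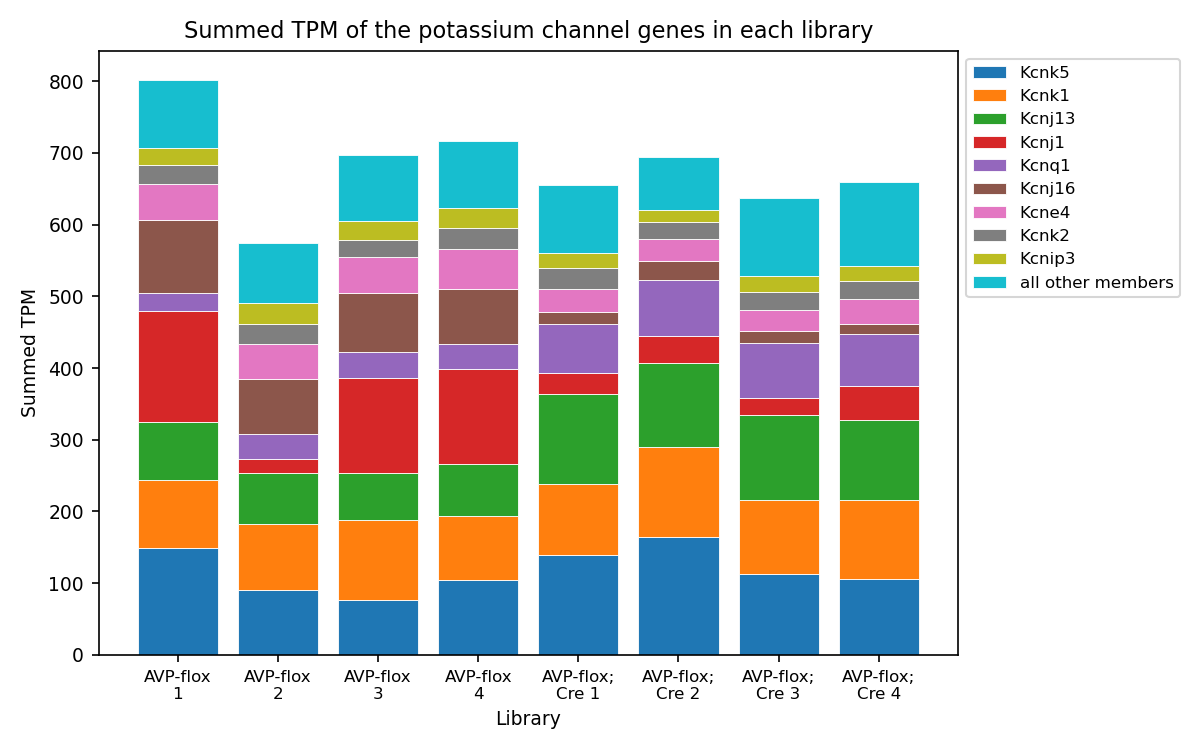
Summed TPM of all 93 members in each library, divided into the 9 members with a mean of at least 10 TPM and all others. The Kcnq1 and Kcnj13 segments are taller and the Kcnj16 segment shorter in the AVP-flox;Cre libraries.

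Inward rectifiers held 1 of the clearest falls and 1 of the clearest rises. Kcnj products form tetramers that pass potassium more easily into than out of the cell. Of 15 Kcnj genes, 7 were tested, with 1 higher, 1 lower and 5 not past the threshold. The sum of the 15 Kcnj genes was 287 ± 72 TPM in AVP-flox and 194 ± 7.4 TPM in AVP-flox;Cre (SD, n = 4 each). It ranged from 187 to 360 TPM in AVP-flox and from 185 to 200.5 TPM in AVP-flox;Cre, so the groups overlapped. Kcnj1, which did not pass, made up 10.3% to 44.5% of this sum in AVP-flox and 12.6% to 23.6% in AVP-flox;Cre.

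Kcnj16 (ENSMUSG00000051497) encodes a subunit of basolateral channels in distal nephron and collecting duct. Its levels stood at 102, 76.4, 83.0 and 77.1 TPM in AVP-flox 1 to 4 and at 17.3, 26.4, 16.9 and 15.0 TPM in Cre-carrying replicates 1 to 4. All AVP-flox;Cre libraries lay below all AVP-flox libraries. Mean Kcnj16 was 4.48-fold lower in AVP-flox;Cre (log2 fold change -2.13, SE 0.16, limma adjusted p = 3.50e-05; exact permutation test p = 0.0286, the smallest that 4 against 4 allows).

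Kcnj10, whose product pairs with that of Kcnj16 in the basolateral membrane, was present at far lower levels of 1.46, 0.61, 1.71 and 2.52 TPM in AVP-flox 1 to 4 and at 0.55, 0.52, 0.57 and 0.57 TPM in Cre-carrying replicates 1 to 4. The groups did not overlap, but the limma test did not pass (log2 fold change -0.68, SE 0.27, limma adjusted p = 0.094). With AVP-flox 2, the AVP-flox library nearest to AVP-flox;Cre, left out, the limma adjusted p was 0.0364. This was the 1 of 20 alternatives in which Kcnj10 passed, with limma adjusted p up to 0.198 in the others. Kcnj10 reached a mean of 1 TPM only through AVP-flox. Kcnj15, another partner of Kcnj16, was at 5.18, 3.48, 6.40 and 2.99 TPM in AVP-flox 1 to 4 and at 2.94, 3.37, 5.65 and 4.47 TPM in Cre-carrying replicates 1 to 4, with overlapping groups (log2 fold change -0.10, 95% interval -0.64 to 0.45, limma adjusted p = 0.808). The level ratio of Kcnj16 to Kcnj15 was 13.0 to 25.8 in AVP-flox and 2.99 to 7.83 in AVP-flox;Cre. This ratio, like the others below, was chosen after values had been seen.

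Kcnj13 (ENSMUSG00000079436), which encodes an inward rectifier of low conductance found in transporting epithelia, moved the other way. Its levels stood at 81.2, 71.2, 65.7 and 71.7 TPM in AVP-flox 1 to 4 and at 125, 117, 119 and 111 TPM in Cre-carrying replicates 1 to 4. The lowest AVP-flox;Cre library lay above the highest AVP-flox library. The rise was 1.63-fold (log2 fold change 0.70, SE 0.08, limma adjusted p = 0.000223; exact permutation test p = 0.0286). Kcnj13 shares exon bases with Gigyf2 on the opposite strand, a gene for a translational repressor. Without stated strand use, reads within the shared bases cannot be told apart. Gigyf2 itself was at 76.3 ± 8.42 TPM in AVP-flox and 72.7 ± 3.94 TPM in AVP-flox;Cre (SD, n = 4 each; limma adjusted p = 0.65). Kcnj13 made up 21.7% to 38.1% of the Kcnj sum in AVP-flox and 55.6% to 65.2% in AVP-flox;Cre, whereas Kcnj16 made up 25.8% to 40.9% and 7.48% to 13.2%.

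Kcnj1 (ENSMUSG00000041248) encodes the apical secretory channel of the thick ascending limb and cortical collecting duct. It stood at 155, 19.2, 132 and 133 TPM in AVP-flox 1 to 4 and at 29.3, 38.0, 23.2 and 47.4 TPM in Cre-carrying replicates 1 to 4. AVP-flox 2 lay below every other library, while the other AVP-flox libraries lay above all AVP-flox;Cre libraries. Kcnj1 missed the threshold (log2 fold change -1.33, 95% interval -2.62 to -0.05, limma adjusted p = 0.115). The 95% intervals are those of single genes and are not adjusted for the number tested, so an interval may leave out 0 where the adjusted p does not pass. Without AVP-flox 2 the log2 fold change of Kcnj1 was -2.03 with a limma adjusted p of 0.00038. Leaving out that library separates the groups by construction, so this fit is no independent support for a difference. Of 8 fits with a single library left out, Kcnj1 passed in this 1 alone, with limma adjusted p up to 0.252 in the others. Slc12a1, the sodium-potassium-chloride cotransporter that defines the thick ascending limb, stood at 682, 98.3, 577 and 624 TPM in AVP-flox 1 to 4 and at 151, 179.5, 97.3 and 189.7 TPM in Cre-carrying replicates 1 to 4. The ratio of Kcnj1 to Slc12a1 was 0.194 to 0.25 in all 8 libraries, with the groups overlapping. Against Umod, which encodes the thick limb protein uromodulin, the ratio of Kcnj1 was 0.102 to 0.116 in AVP-flox and 0.061 to 0.097 in AVP-flox;Cre, so these groups did not overlap. The groups thus overlapped in the ratio of Kcnj1 to Slc12a1 and not in its ratio to Umod. The ratio of Kcnj16 to Slc12a1 was 0.124 to 0.15 in AVP-flox 1, 3 and 4 and 0.079 to 0.174 in AVP-flox;Cre, which overlapped. Kcnj16 departed from this in AVP-flox 2 alone, where the ratio was 0.778. 10 of the 11 thick limb and distal tubule markers were tested, of which 3 were higher, 0 lower and 7 not past the threshold. Slc12a1 and Umod were among those not past it. Over all tested genes 13.1% were higher and 14.2% lower. The higher markers were Cldn16, Cldn10 and Sostdc1, with log2 fold changes of 0.69, 0.27 and 0.87. The summed level of the 11 markers was 1087 to 3092 TPM in AVP-flox and 1705 to 1980 TPM in AVP-flox;Cre. The part of these cells in the Kcnj1 values was not tested.

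**Figure D4:**
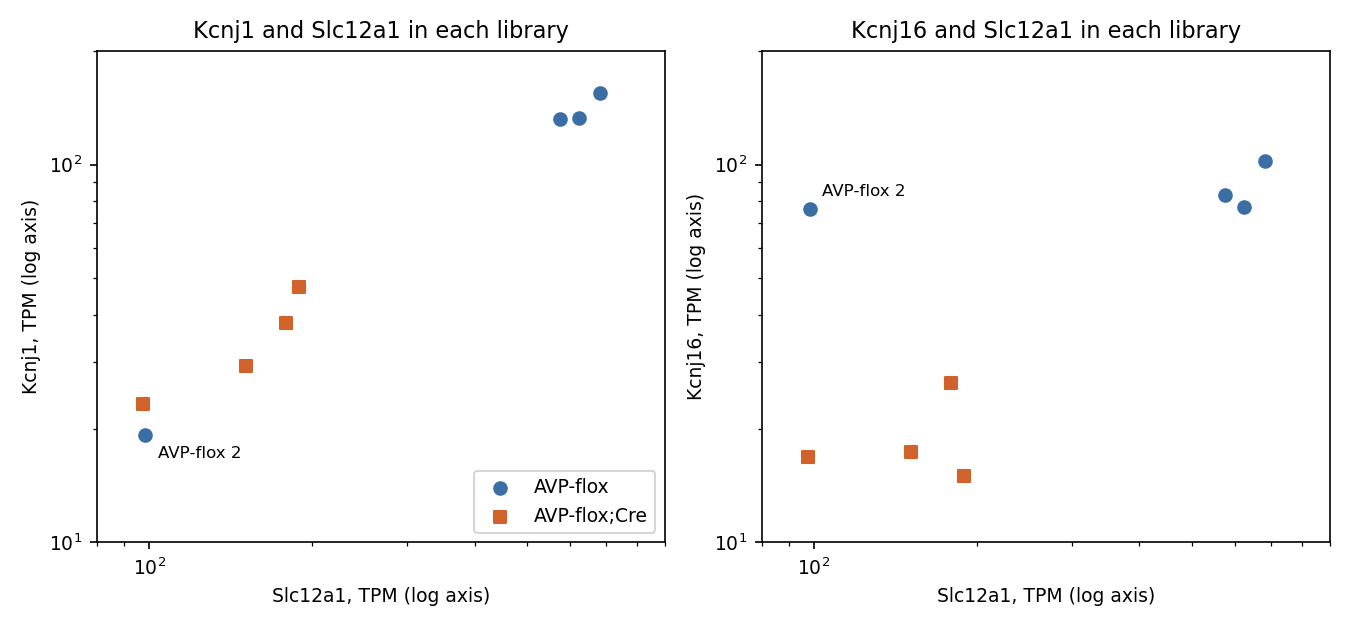
TPM of Kcnj1 (left) and Kcnj16 (right) against Slc12a1 in each library, both axes logarithmic, with circles for AVP-flox and squares for AVP-flox;Cre. AVP-flox 2 lies with the AVP-flox;Cre libraries for Kcnj1, at 19.2 TPM, and with the other AVP-flox libraries for Kcnj16, at 76.4 TPM.

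Kcnj8 encodes the pore of ATP-sensitive channels in vascular smooth muscle and pericytes. Its level was 7.98 ± 2.34 TPM in AVP-flox and 11.5 ± 1.48 TPM in AVP-flox;Cre (SD, n = 4 each; log2 fold change 0.51, 95% interval 0.09 to 0.94, limma adjusted p = 0.072), and it passed in 4 of 23 alternatives, among them without AVP-flox 3 (adjusted p = 0.0337). Kcnj2, a strong inward rectifier, was at 2.98 to 7.02 TPM in AVP-flox and 3.19 to 5.18 TPM in AVP-flox;Cre and did not pass (limma adjusted p = 0.669).

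Tandem-pore channels included 2 of the 3 highest members in each group, Kcnk5 and Kcnk1. Of 14 Kcnk genes, 4 were tested, with 1 higher and 3 not past the threshold. Kcnk5 (ENSMUSG00000023243), an acid- and alkali-sensitive background channel of kidney epithelia, was at 149, 90.6, 76.9 and 105 TPM in AVP-flox 1 to 4 and at 139, 164, 113 and 106 TPM in Cre-carrying replicates 1 to 4. The groups overlapped (log2 fold change 0.33, 95% interval -0.11 to 0.78, limma adjusted p = 0.25). Without AVP-flox 1 the log2 fold change was 0.51 with an adjusted p of 0.0496, and without AVP-flox 3 it was 0.20 with an adjusted p of 0.521. AVP-flox 1 and Cre-carrying replicates 1 and 2 showed the male pattern of Xist and the others the female pattern, and these 3 libraries held the highest Kcnk5 levels. With sex as a covariate the log2 fold change was 0.19 with an adjusted p of 0.249. Kcnk1 (ENSMUSG00000033998), a weakly conducting channel found in collecting duct, was at 94.7, 92.4, 111 and 89.3 TPM in AVP-flox 1 to 4 and at 99.8, 125, 103 and 110.0 TPM in Cre-carrying replicates 1 to 4. The groups overlapped here too (log2 fold change 0.18, 95% interval -0.04 to 0.39, limma adjusted p = 0.204). Kcnk2, a channel opened by membrane stretch and lipids, was at 27.1, 27.7, 22.8 and 28.4 TPM in AVP-flox 1 to 4 and at 28.9, 23.4, 24.6 and 24.2 TPM in Cre-carrying replicates 1 to 4. Its groups overlapped (log2 fold change -0.06, 95% interval -0.29 to 0.16, limma adjusted p = 0.691).

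Kcnk3 (ENSMUSG00000049265), an acid-sensitive background channel known from vascular smooth muscle and adrenal cortex, was the tandem-pore gene that rose. It stood at 0.68, 1.02, 1.01 and 1.71 TPM in AVP-flox 1 to 4 and at 10.4, 4.00, 6.06 and 3.64 TPM in Cre-carrying replicates 1 to 4. Every AVP-flox;Cre library lay above every AVP-flox library, with a wide spread from 3.64 to 10.4 TPM among them. The mean was 5.46-fold higher (log2 fold change 1.67, SE 0.30, limma adjusted p = 0.00283). Kcnk3 shares exon bases with an opposite-strand transcript, so reads within the shared bases cannot be assigned to either of them without strand.

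Kcnq1 (ENSMUSG00000009545), a voltage-gated channel that works with Kcne subunits in epithelia and heart, was the 1 tested gene of 5 in its subfamily. It was at 25.2, 34.6, 36.0 and 34.8 TPM in AVP-flox 1 to 4 and at 68.5, 77.8, 76.6 and 71.6 TPM in Cre-carrying replicates 1 to 4. The lowest AVP-flox;Cre value was above the highest AVP-flox value, and AVP-flox 1 was the lowest library. Mean Kcnq1 was 2.26-fold higher (log2 fold change 1.16, SE 0.11, limma adjusted p = 0.000119; exact permutation test p = 0.0286). The antisense transcript Kcnq1ot1, which shares exon bases with Kcnq1, was at 1.88 ± 0.543 TPM in AVP-flox and 1.45 ± 0.289 TPM in AVP-flox;Cre (SD, n = 4 each; limma adjusted p = 0.499).

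The Kcne subunits, single-pass partners that alter the gating of Kcnq1 and other channels, had 3 of 5 genes tested, with 2 lower and 1 not past the threshold. Kcne4 (ENSMUSG00000047330), known to inhibit Kcnq1 currents, was at 49.4, 48.9, 50.6 and 55.7 TPM in AVP-flox 1 to 4 and at 31.8, 30.9, 29.2 and 34.8 TPM in Cre-carrying replicates 1 to 4. The groups were separate and the spread within each was small. Kcne4 was 1.62-fold lower (log2 fold change -0.68, SE 0.08, limma adjusted p = 0.000347; exact permutation test p = 0.0286). The level ratio of Kcnq1 to Kcne4 was 0.509 to 0.711 in AVP-flox and 2.06 to 2.63 in AVP-flox;Cre.

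Kcne2, a partner of Kcnq1 in gastric and thyroid epithelium, was at 3.82, 2.10, 3.45 and 1.61 TPM in AVP-flox 1 to 4 and at 0.51, 1.26, 0.6 and 0.79 TPM in Cre-carrying replicates 1 to 4. It was 3.47-fold lower (log2 fold change -1.04, SE 0.26, limma adjusted p = 0.0156), and without AVP-flox 3 the adjusted p was 0.0545. Kcne3, which holds Kcnq1 open in intestinal epithelium, was at 2.46, 2.43, 2.08 and 2.02 TPM in AVP-flox 1 to 4 and at 3.66, 2.33, 4.07 and 4.06 TPM in Cre-carrying replicates 1 to 4. Kcne3 did not pass (log2 fold change 0.46, 95% interval 0.04 to 0.88, limma adjusted p = 0.0963). It passed in 2 of 22 alternatives, with limma adjusted p up to 0.239 in the others. Among the 2 was the fit without AVP-flox;Cre 2 (limma adjusted p = 0.0261), the AVP-flox;Cre library that overlapped AVP-flox. Kcne1, the cardiac partner of Kcnq1, was below 1 TPM on average, at 0.06 to 0.61 TPM in AVP-flox and 0.05 to 0.89 TPM in AVP-flox;Cre, and was not tested.

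Among modifiers of voltage-gated channels, all tested Kcnip genes were lower, 2 of 4 genes. Kcnip products are calcium-binding proteins that attach to Kcnd channels, and that of Kcnip3 also acts as a transcriptional repressor. Kcnip3 (ENSMUSG00000079056) was at 23.6, 29.3, 26.6 and 28.3 TPM in AVP-flox 1 to 4 and at 20.9, 16.8, 22.2 and 21.2 TPM in Cre-carrying replicates 1 to 4. The groups were separate by a narrow gap (log2 fold change -0.40, SE 0.11, limma adjusted p = 0.0239), and the call was lost without AVP-flox 2, 3 or 4, with adjusted p of 0.0641, 0.0549 and 0.0592. Kcnip2 was at 6.30, 8.54, 4.31 and 4.46 TPM in AVP-flox 1 to 4 and at 1.50, 1.38, 2.90 and 1.03 TPM in Cre-carrying replicates 1 to 4. It was 3.47-fold lower (log2 fold change -1.36, SE 0.26, limma adjusted p = 0.0043), and when AVP-flox 2 and Cre-carrying replicates 2 and 4 were dropped the adjusted p was 0.0706 for Kcnip2 and 0.193 for Kcnip3, whose log2 fold change was then -0.27.

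The pore-forming partners of the Kcnip products did not pass. Kcnd3 was at 1.20, 0.38, 0.89 and 0.84 TPM in AVP-flox 1 to 4 and at 1.00, 0.89, 1.73 and 1.33 TPM in Cre-carrying replicates 1 to 4 (log2 fold change 0.30, 95% interval -0.25 to 0.85, limma adjusted p = 0.413). Kcnd2 was at 0.69, 0.59, 0.81 and 0.7 TPM in AVP-flox 1 to 4 and at 1.34, 0.95, 1.47 and 1.56 TPM in Cre-carrying replicates 1 to 4, with separate groups (log2 fold change 0.45, 95% interval -0.03 to 0.93, limma adjusted p = 0.148). Both encode channels of rapidly inactivating currents and lay just above the threshold of 1 TPM.

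Kcns3 (ENSMUSG00000043673), an electrically silent subunit that modifies voltage-gated channels, was the 1 tested gene of 3 in its subfamily. It was at 10.3, 9.97, 9.49 and 14.0 TPM in AVP-flox 1 to 4 and at 5.50, 4.18, 3.98 and 3.10 TPM in Cre-carrying replicates 1 to 4. The groups did not overlap, and Kcns3 was 2.61-fold lower (log2 fold change -1.21, SE 0.18, limma adjusted p = 0.000991).

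Kcnc2, a fast delayed rectifier known from neurons, was at 0.89, 0.46, 1.08 and 0.7 TPM in AVP-flox 1 to 4 and at 1.92, 4.03, 1.18 and 2.38 TPM in Cre-carrying replicates 1 to 4. The lowest AVP-flox;Cre value, 1.18 TPM, was just above the highest AVP-flox value of 1.08 TPM. It was 3.04-fold higher (log2 fold change 0.87, SE 0.28, limma adjusted p = 0.0442), and the call was lost in 14 of 22 alternatives. These included leaving out any 1 library other than AVP-flox;Cre 3, with adjusted p up to 0.106. With AVP-flox 2 and Cre-carrying replicates 2 and 4 left out, the log2 fold change of Kcnc2 was 0.42 with an adjusted p of 0.355. Several other voltage-gated genes did not pass. Kcna6, a delayed rectifier subunit, was at 5.70, 4.74, 4.22 and 7.67 TPM in AVP-flox 1 to 4 and at 5.01, 4.15, 6.93 and 6.49 TPM in Cre-carrying replicates 1 to 4 (log2 fold change 0.02, 95% interval -0.43 to 0.47, limma adjusted p = 0.955). Kcnab2, a cytoplasmic beta subunit of Kcna channels, was at 2.07, 2.91, 1.43 and 3.38 TPM in AVP-flox 1 to 4 and at 2.04, 1.07, 3.86 and 3.23 TPM in Cre-carrying replicates 1 to 4 (log2 fold change 0.00, 95% interval -0.67 to 0.68, limma adjusted p = 0.993). Kcnh3, a channel known from brain, was at 3.02, 2.79, 1.97 and 2.50 TPM in AVP-flox 1 to 4 and at 2.38, 0.44, 4.17 and 2.19 TPM in Cre-carrying replicates 1 to 4 (log2 fold change -0.25, 95% interval -1.02 to 0.53, limma adjusted p = 0.647). The level of Kcnh7, a channel of the ether-a-go-go family, was 1.08 to 1.44 TPM in AVP-flox and 1.18 to 1.35 TPM in AVP-flox;Cre. None of these separated the groups.

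Large-conductance calcium-activated channels consist of a pore (Kcnma1) and beta subunits (Kcnmb). Kcnmb1 (ENSMUSG00000020155), the beta subunit known from smooth muscle, was at 0.43, 0.94, 0.78 and 0.44 TPM in AVP-flox 1 to 4 and at 3.04, 2.63, 2.93 and 4.56 TPM in Cre-carrying replicates 1 to 4. All AVP-flox libraries were below 1 TPM and all AVP-flox;Cre libraries above it, so Kcnmb1 was tested only because of its AVP-flox;Cre values. Kcnmb1 was 5.08-fold higher (log2 fold change 1.37, SE 0.22, limma adjusted p = 0.00168). The size of a log2 change at such low levels depends on the pseudocount: with 0.1 and 5 in place of 1 it was 2.21 and 0.55 for Kcnmb1 and 2.29 and 0.82 for Kcnk3, past the threshold in each case. The pore gene Kcnma1 was not tested because its mean was below 1 TPM, with levels at 0.16, 0.31, 0.19 and 0.39 TPM in AVP-flox 1 to 4 and at 0.74, 0.53, 2.11 and 1.47 TPM in Cre-carrying replicates 1 to 4. Its groups did not overlap (exact permutation test p = 0.0286), and without a filter on low values its limma adjusted p was 0.155. Kcnmb4, the beta subunit known from neurons and collecting duct, was at 0.82, 0.81, 0.99 and 1.17 TPM in AVP-flox 1 to 4 and at 1.13, 0.66, 2.77 and 2.39 TPM in Cre-carrying replicates 1 to 4 (log2 fold change 0.42, 95% interval -0.23 to 1.07, limma adjusted p = 0.328).

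Lrrc26 encodes a gamma subunit that lets the large-conductance pore open at resting voltage in epithelia. It is no member by symbol and was singled out after its values were seen. It was at 28.5 ± 9.33 TPM in AVP-flox and 75.5 ± 5.83 TPM in AVP-flox;Cre (SD, n = 4 each; log2 fold change 1.43, SE 0.21, limma adjusted p = 0.001), far above Kcnma1. Of the 12 fibroblast, pericyte and smooth muscle markers 11 were tested and 6 were higher, 0 lower. In the background of all tested genes 13.1% were higher and 14.2% lower. The summed level of the 12 markers was 151 to 208 TPM in AVP-flox and 309 to 383 TPM in AVP-flox;Cre. The smooth muscle marker Myh11 was at 0.84 to 1.98 TPM in AVP-flox and 2.04 to 3.34 TPM in AVP-flox;Cre. The part of these cells in the Kcnmb1, Kcnk3 and Kcnj8 values was not tested.

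All 4 Kcnn genes, small- and intermediate-conductance calcium-activated channels, were tested and none passed. Kcnn3 was at 2.08, 3.03, 4.22 and 3.08 TPM in AVP-flox 1 to 4 and at 2.64, 2.85, 2.86 and 2.49 TPM in Cre-carrying replicates 1 to 4 (log2 fold change -0.12, 95% interval -0.55 to 0.30, limma adjusted p = 0.683). Kcnn4, the intermediate-conductance channel of epithelia and leukocytes, was at 1.84, 1.51, 1.47 and 0.93 TPM in AVP-flox 1 to 4 and at 0.68, 1.37, 2.34 and 1.30 TPM in Cre-carrying replicates 1 to 4 (log2 fold change -0.04, 95% interval -0.61 to 0.54, limma adjusted p = 0.931). The groups of both overlapped. Kcnn1 was at 2.27 to 4.36 TPM in AVP-flox and 1.26 to 2.40 TPM in AVP-flox;Cre (log2 fold change -0.57, 95% interval -1.05 to -0.08, limma adjusted p = 0.0824). Kcnn2 was at 1.00 to 3.09 TPM in AVP-flox and 0.57 to 2.81 TPM in AVP-flox;Cre (log2 fold change -0.47, 95% interval -1.23 to 0.29, limma adjusted p = 0.345). Both encode small-conductance channels known from neurons, and neither separated the groups. Kcnt1, a sodium-activated channel, was at 6.66, 1.25, 6.50 and 7.83 TPM in AVP-flox 1 to 4 and at 6.41, 5.89, 5.37 and 10.5 TPM in Cre-carrying replicates 1 to 4. Its lowest value was in AVP-flox 2, as for Kcnj1. It did not pass (log2 fold change 0.43, 95% interval -0.47 to 1.33, limma adjusted p = 0.477), and without AVP-flox 2 the log2 fold change was -0.03. Kcnu1, a pH-sensitive channel of sperm, was at 1.13, 0.71, 1.65 and 0.85 TPM in AVP-flox 1 to 4 and at 2.57, 1.34, 1.86 and 0.94 TPM in Cre-carrying replicates 1 to 4 (log2 fold change 0.34, 95% interval -0.24 to 0.92, limma adjusted p = 0.369).

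The 59 genes below a mean of 1 TPM included every gene of Kcnf, Kcng, Kcnma and Kcnv. Just below the threshold were Kcnh2 at 0.953 and Kcnk6 at 0.943 TPM, and the 3 lowest above the threshold were Kcnd2 at 1.01, Kcnd3 at 1.03 and Kcnj10 at 1.06 TPM. Besides Kcnma1, the beta subunit gene Kcnmb3 was the 1 untested member whose groups did not overlap, at 0.21 to 0.39 TPM in AVP-flox and 0.48 to 1.48 TPM in AVP-flox;Cre. The share of all untested genes without overlap was not computed, so this has no background beside it. AVP-flox;Cre 3 and 4 also listed more genes of at least 1 TPM, 20765 and 23412, against 18211 to 18531 in AVP-flox. 16 members were below 0.1 TPM, and 0 were at 0 in every library. AVP-flox;Cre 2 listed 26 members at 0 and AVP-flox 4 listed 4, whereas the other libraries listed 0. 7 of the tested members had a mean below 1 TPM in 1 group and above it in the other, and 3 of these, Kcnmb1, Kcnc2 and Kcne2, passed the test. These genes reached the filter only through the group in which they were high.

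Other genes of potassium transport were read from a list of partners and a list of regulators. For comparison with the counts of both lists, 13.1% of all tested genes were higher and 14.2% lower. Of 27 partner and transport genes 15 were tested, with 4 higher, 3 lower and 8 not past the threshold, and a median log2 fold change of -0.02. The potassium-chloride cotransporter gene Slc12a7 was at 41.9 ± 2.11 TPM in AVP-flox and 64.0 ± 2.90 TPM in AVP-flox;Cre (log2 fold change 0.60, SE 0.07, limma adjusted p = 0.00031). Tmem38b, for a potassium-permeable channel of intracellular membranes, was at 80.7 ± 6.52 TPM in AVP-flox and 54.7 ± 5.73 TPM in AVP-flox;Cre (log2 fold change -0.55, SE 0.09, limma adjusted p = 0.00181). Of 21 regulators 5 were higher, 2 lower and 14 not past the threshold, with a median of 0.08. Wnk4, a kinase that controls salt transport and Kcnj1 at the membrane, was at 177 ± 15.5 TPM in AVP-flox and 84.3 ± 4.13 TPM in AVP-flox;Cre (log2 fold change -1.06, SE 0.08, limma adjusted p = 2.71e-05). Dlg1, a scaffold that binds Kcnj tails, was at 117 ± 7.48 TPM in AVP-flox and 80.8 ± 6.08 TPM in AVP-flox;Cre (log2 fold change -0.53, SE 0.08, limma adjusted p = 0.00104). Cd63, a tetraspanin, was at 543 ± 101 TPM in AVP-flox and 841 ± 33.5 TPM in AVP-flox;Cre (log2 fold change 0.65, SE 0.13, limma adjusted p = 0.00446). The scaffold gene Magi1 was at 8.09 ± 1.28 TPM in AVP-flox and 12.6 ± 1.14 TPM in AVP-flox;Cre (log2 fold change 0.59, SE 0.13, limma adjusted p = 0.00976). Errors here are SD over 4 libraries a group.

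Markers of the labelled cell type ranged widely in level. Aqp2, the vasopressin-regulated water channel, was at 14915 to 18131 TPM in AVP-flox and 5443 to 7036 TPM in AVP-flox;Cre. Slc14a2, which encodes urea transporters of this segment, was at 848 to 1081 TPM in AVP-flox and 1282 to 1447 TPM in AVP-flox;Cre. The lowest of these markers, Scnn1a, was at 3.08 to 11.5 TPM in AVP-flox and 11.1 to 18.7 TPM in AVP-flox;Cre. Some markers of other cell types were as abundant as Slc14a2. Means over the 8 libraries were 3447 TPM for Psca (papillary surface) and 1272.5 TPM for Plvap (endothelium). Of 15 collecting duct markers 5 were higher and 4 lower. Higher markers also numbered 5 of 11 tested for intercalated cells, 6 of 8 for papillary surface and urothelium (1 lower), 5 of 10 for endothelium (2 lower) and 1 of 8 for leukocytes. None of 10 proximal tubule markers passed (0 higher, 0 lower), and of 4 tested nerve markers 0 were higher and 1 lower. Beside these counts, 13.1% of all tested genes were higher and 14.2% lower. The part of these cell types in the member values was not tested. Fewer genes were detected in AVP-flox;Cre 2, with 33576 above 0 TPM, than in the remaining libraries, with 50951 to 58232. Since TPM carry no read numbers, sequencing depth is unknown here and values have no counting interval.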

How the data were processed

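RNA from 4 AVP-flox and 4 AVP-flox;Cre kidney samples was measured. Per the labels, 1 ng of RNA went into cDNA synthesis by SMART-Seq HT (11 amplification cycles), with sequencing from both ends (50 bp). The submitters' processing notes list STAR and RSEM and give no version. Genome build, annotation and strand use: not given in the sources used here. The authors deposited TPM per gene identifier (78298 identifiers). Columns named WT and KO were read as AVP-flox and AVP-flox;Cre, with the replicate numbers they carry. TPM were summed by symbol, and genes whose mean reached 1 TPM were tested as log2(TPM + 1) with limma 3.58.1 (R 4.3.3, trend, two-sided), and single genes with an exact two-sided permutation test. Fold changes on this scale understate changes of low genes. The test was tested on simulated data. Overlapping genes came from GENCODE M21, which may not be the authors' annotation. 16 tested members share exon bases with another gene there.

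The members, lists and tests were chosen with earlier results of these data known. Named with every value were changed members, those of at least 10 TPM, the highest of each subfamily, channels known from kidney epithelia, and, with group means, up to 4 changed genes of each pathway list. Other named genes, the ratios, Lrrc26 and the comparison with Slc12a1 were chosen after values were seen. Alternatives were a replicate block, other pseudocounts, filters, scalings and variance models, sample weights, unsummed identifiers, sex, libraries left out and, added after seeing the data, a correction for GC content at the 5′ end. Protein sequences were not used here, and the values of some genes that the rule names are not reported here.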

Additional observations from a re-analysis of the deposited data

Results flagged for a closer look

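4 of 68 groups of 4 libraries (34 genes, 2 groups each, on log2(TPM + 1)) held a library whose gap to the nearest other exceeded Dixon's 95% critical value. Chance gives about 1 in 20 groups. Kcnj1 was 19.2 TPM in AVP-flox 2, against 132 to 155 TPM in the other AVP-flox libraries. Kcnt1 was 1.25 TPM in AVP-flox 2, against 6.50 to 7.83 TPM. Kcnn2 was 1 TPM in AVP-flox 2, against 2.79 to 3.09 TPM. Kcnq1 was 25.2 TPM in AVP-flox 1, against 34.6 to 36.0 TPM in the other AVP-flox libraries.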

How the results depend on the processing

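Over 754 values of single genes under alternatives, 690 kept their direction and side of the threshold, 22 lost the call, 14 gained it and 28 changed sign. Genes changed over the whole table numbered 5204, against 3409 with no filter and 2560 with AVP-flox 2 and Cre-carrying replicates 2 and 4 left out. Higher members numbered 5, against 2 with a filter at 5 TPM, where only 13 members were tested. The summed TPM in AVP-flox;Cre was 661, against 715 after rescaling without mitochondrial and the 10 most abundant genes. The rescaling applied to all libraries, so 715 cannot be set beside the sum of 697 TPM in AVP-flox before rescaling. The cause was not tested except for the filters, which change the genes tested. With the replicate block 4431 genes changed, and 5 members were higher and 5 lower. Kcnip3 (adjusted p = 0.0592) and Kcnc2 (0.101) lost the call and Kcnj8 (0.042) gained it. Same-numbered libraries correlated at 0.001 to 0.095, and differently numbered ones at up to 0.068. Correlations this weak cannot decide whether the numbers pair the samples, and the labels do not say.

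Sign changes were limited to genes that did not pass the test. Without the 3 libraries above, Kcnk2 was 0.038, Kcnt1 -0.22 and Kcnh3 0.27. Kcnk2 was 0.12 after the GC correction. Kcnab2 was -0.019 with a pseudocount of 0.1, -0.031 with quantile scaling and -0.017 after rescaling. After rescaling Kcna6 was -0.0056. With sample weights Kcnh3 was 0.053 and Kcnn4 0.024, and with quantile scaling Kcnh7 was -0.052. Leaving out 1 library at a time gave -0.083 to 0.16 for Kcna6, -0.17 to 0.24 for Kcnab2, -0.51 to 0.11 for Kcnh3, -0.0073 to 0.069 for Kcnh7, -0.24 to 0.060 for Kcnj15, -0.33 to 0.0081 for Kcnj2, -0.25 to 0.0027 for Kcnn3, -0.21 to 0.12 for Kcnn4 and -0.028 to 0.63 for Kcnt1. Among other genes that did not pass, it moved Kcnn2 between -0.71 and -0.27, Kcnk1 between 0.11 and 0.24, Kcnmb4 between 0.24 and 0.63, Kcnd3 between 0.17 and 0.39 and Kcnu1 between 0.19 and 0.49, each by over 1.5 times and with no change of call.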
